A study of Mus musculus with 4 samples.

Results

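Granulosa cells (GCs), the somatic cells that enclose the oocyte, make a set of proteases, inhibitors and receptors of the plasminogen and coagulation systems outside the liver. The genes described here are 9 of the 55385 in the count table, chosen by symbol: Plat, Plau, Plaur, Serpine2, F3, Tfpi, Thbd, Procr and F2r. All 9 matched 1 Ensembl identifier each, all 9 lay above the detection floor in every library, and all 9 passed the filter on low counts. No exon of these genes overlapped an exon of another annotated gene.

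The libraries came from bulk RNA of GCs from preantral follicles of Kunming mice aged 12 to 14 days, grown in culture for 6 days. In the NT4 group (2 libraries, NT4 1 and NT4 2) the medium held neurotrophin-4 (NT-4), a ligand of the TRKB receptor. In the Control group (2 libraries, Control 1 and Control 2) it did not. Medium with FSH, fetuin, albumin and insulin-transferrin-selenium was common to both groups, and by the study's methods the 2 samples of a group came from independent experiments. How many mice and follicles went into a library is not given in the sources used here.

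Plasminogen activators cut the liver-made zymogen plasminogen into plasmin, a broad protease of fibrin and extracellular matrix, and serpins hold them in check by trapping them in a covalent complex. In the rodent ovary this system has long been studied for its part in the remodelling and opening of the follicle wall near ovulation. Coagulation outside vessels starts when tissue factor on a cell surface meets its plasma partner. Thrombin, the protease formed at the end, both signals through its own receptors and, bound to thrombomodulin, starts the protein C brake on clotting.

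Library totals ran from 49520092 to 78704020 counts, an estimated 12380023 to 19676005 read pairs at 4 counts per pair. Counts scaled to the library total (CPM) were used as levels, and values are given with the library numbered 1 before that numbered 2. The detection floor, 3 read pairs, lay at 0.152 to 0.242 CPM and covers counting error only. All 15 granulosa marker genes lay above that floor in every library, with summed levels of 13204 to 19816 CPM. Markers of other cells were lower: 1440 to 2099 CPM for 10 theca and stroma genes, 23.0 to 30.8 for Gdf9, the leading gene of 10 for the oocyte, 76.2 to 130.9 for 10 hepatocyte genes, and 2.39 to 4.81 for 10 macrophage genes. The hepatocyte sum was highest in Control 1, at 130.9 CPM against 76.2 to 85.4 in the other libraries. Of the 8 platelet and megakaryocyte genes, Pf4, Ppbp, Gp9, Gp6 and Treml1 had a count of 0 in every library. The floor was passed in all libraries by 2 of the 8, Itga2b at 0.88 to 1.04 CPM and Gp1ba at 0.59 to 1.17 CPM. Gp1bb was at 0.016 to 0.18 CPM.

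RefSeq promoter windows on GRCm38.p6 were held for 6 of the 9 genes (7 windows, 2 of them of Tfpi), and the 250 bases before each start were searched on both strands. The letters searched were chosen after these sequences had been read, so their frequency here is a description. The letters TGANTCA of AP-1, the dimer of FOS and JUN proteins, which read the same on both strands, stood in the windows of Plaur, F3, Procr and F2r, and in 6.75% of all 32851 windows. F3 held them at 146 and 135 bases before the start, Plaur at 69, Procr at 154 and F2r at 204. The stretches around them follow, 5′ to 3′ on the gene's own strand, with the matching letters in capitals, because 4 of the 6 genes share them.
Plaur, chr7:24462384-24462450, plus strand: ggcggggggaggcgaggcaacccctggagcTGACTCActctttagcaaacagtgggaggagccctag
F3, chr3:121723361-121723438, plus strand: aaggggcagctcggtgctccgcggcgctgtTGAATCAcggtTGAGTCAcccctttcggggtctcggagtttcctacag
Procr, chr2:155751033-155751099, plus strand: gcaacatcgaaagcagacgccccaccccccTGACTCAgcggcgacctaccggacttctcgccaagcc
F2r, chr13:95618634-95618700, minus strand: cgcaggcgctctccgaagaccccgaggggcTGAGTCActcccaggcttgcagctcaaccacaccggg

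Tfpi is shown next to these because it was the gene whose groups did not overlap. Neither of its windows held TGANTCA. The stretch printed, the part of its upstream window that lies before the GENCODE start, held the GC box letters GGGCGG once, on the strand opposite the gene, so that they read CCGCCC in capitals here.
Tfpi, chr2:84476776-84477009, minus strand: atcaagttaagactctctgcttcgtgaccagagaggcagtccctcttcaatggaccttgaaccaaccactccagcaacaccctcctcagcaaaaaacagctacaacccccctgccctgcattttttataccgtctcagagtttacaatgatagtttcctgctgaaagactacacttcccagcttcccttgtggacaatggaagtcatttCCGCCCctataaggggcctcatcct
The GC box letters stood in 6 of the 7 windows of these genes and in 32.7% of all windows. The 8-letter CRE, TGACGTCA, was in none of the 7 and in 1.55% of all. The TATA letters, TATAAA, stood in 1 of the 7 and in 12.4% of all, that 1 being the upstream Tfpi window, where they lie on the strand opposite the gene 127 bases before the RefSeq start, within the stretch printed and in lower case there. These matches are letters in a window, and no binding was measured.

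The levels of the 9 genes were compared per kilobase of exon, since longer transcripts collect more counts. The inhibitor Serpine2 and the activator Plau stood far above the rest, at 167.6 ± 14.1 and 82.3 ± 20.5 CPM per kb (SD, n = 4 libraries). These means exceeded those of 97.8% and 95.7% of the 14336 genes with a mean of at least 1 CPM. F2r followed at 18.9 ± 2.29 and Thbd at 11.7 ± 1.95 CPM per kb. Next came F3 at 5.26 ± 1.19, Tfpi at 3.56 ± 1.11, Procr at 1.86 to 4.09 in single libraries and Plat at 2.55 ± 0.31 CPM per kb. Plaur was lowest, at 0.92 ± 0.40 CPM per kb. Serpine2, Plau, F2r and Thbd did not overlap with their neighbours in this order over the 4 libraries. The ranges of F3 and Tfpi, of Tfpi and Procr, and of Procr and Plat did overlap, so the order within these pairs is not settled.

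**Figure D1:**
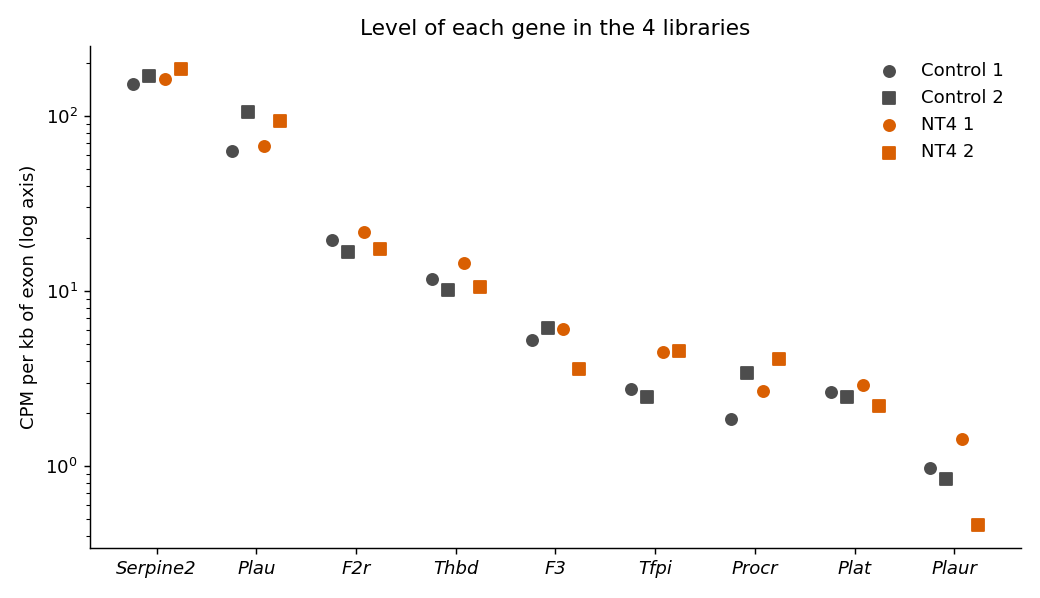
Level of each gene in CPM per kb of exon on a log axis, with 1 point per library (grey Control, orange NT4, circle number 1, square number 2). Serpine2 and Plau lie at 62.9 CPM per kb or more in all 4 libraries, whereas Plaur lies between 0.46 and 1.42.

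The effect of NT-4 on these genes was then examined. Tfpi was the gene that differed most, with a log2 fold change of 0.81, and it was the only gene of the 9 whose groups did not overlap. By edgeR's quasi-likelihood test an adjusted p of 0.05 was passed by 0 of the 9 genes and by 0 of all 19259 genes tested (0.00%). The study's criterion, a fold above 2 or under 0.5 at an unadjusted p under 0.05, was met by 0 of the 9 and by 1.08% of all genes. At an unadjusted p under 0.05 alone there was 1 of the 9, Tfpi, against 1.99% of all genes in either direction and 1.05% in its own, higher in NT4. With the fold lowered to 1.5 it met the criterion, as did 1.57% of all genes. Log2 fold changes were above 0 for 7 of the 9 genes and for 51.0% of all genes, with a median of 0.13 against 0.0045. For 7 of the 9 genes the change was under 0.25 in size, a count with no share of all genes to set beside it. On TMM-scaled log2 CPM the groups did not overlap in 1 of the 9, against 26.0% of all genes, so separation of the groups was no more frequent here than elsewhere.

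Plau encodes urokinase, the activator that works mostly at the cell surface (ENSMUSG00000021822, chr14:20836660-20843385, plus strand). Plau stood at 148.8 and 250.2 CPM in the Control libraries and at 159.7 and 220.6 CPM in the NT4 libraries. The groups overlapped, and the low libraries were those numbered 1 in both groups. NT4 differed from Control by −0.05 on the log2 scale (SE 0.30), an adjusted p of 0.9999 by edgeR, as for each of the 9 genes. The summed granulosa markers were likewise lower in the libraries numbered 1, at 15061 CPM for Control and 13204 for NT4 against 18337 and 19816 CPM at number 2, and their part in the Plau values was not tested. Inha gave the largest part of that sum, at 6716 and 7979 CPM for Control and 5855 and 8687 CPM for NT4. Of the 15 genes 11 were higher in both libraries numbered 2, 3 (Amh, Amhr2 and Kitl) were lower in both, and 1 overlapped. In a bulk library, fewer cells of a type and less RNA per cell cannot be told apart.

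Plat encodes tissue-type plasminogen activator (ENSMUSG00000031538, chr8:22757727-22782844, plus strand). Plat stood at 16.5 and 15.4 CPM in the Control libraries and at 18.2 and 13.7 CPM in the NT4 libraries. The Control values lay inside the NT4 range, and the log2 fold change of 0.02 was smaller than its SE of 0.19. Per kilobase, Plau was above Plat in all 4 libraries.

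Plaur encodes the receptor that holds urokinase at the membrane (ENSMUSG00000046223, chr7:24462484-24475968, plus strand). Plaur stood at 2.54 and 2.20 CPM in the Control libraries and at 3.73 and 1.21 CPM in the NT4 libraries. The highest and the lowest value were both in the NT4 group. With an estimated 24 read pairs in NT4 2 and 58 in NT4 1, the exact binomial 95% intervals were 0.78 to 1.81 and 2.84 to 4.84 CPM, so the NT4 libraries differed beyond counting error. NT4 over Control came to 0.07 on the log2 scale (SE 0.55). Leaving out NT4 1 gave −0.94, and leaving out NT4 2 gave 0.65.

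Serpine2 encodes protease nexin-1, a serpin that traps urokinase, tissue-type activator and thrombin (ENSMUSG00000026249, chr1:79794197-79861180, minus strand). Serpine2 stood at 1266 and 1403 CPM in the Control libraries and at 1343 and 1542 CPM in the NT4 libraries. NT4 1 lay between the Control libraries, so the groups overlapped. The difference of 0.13 on the log2 scale (SE 0.13) was of the size of its error, and it came to 0.0089 without NT4 2, to 0.047 without Control 1 and to 0.24 without NT4 1.

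F3 encodes tissue factor, the membrane protein that starts coagulation (ENSMUSG00000028128, chr3:121723537-121735048, plus strand). F3 stood at 13.3 and 15.5 CPM in the Control libraries and at 15.3 and 9.03 CPM in the NT4 libraries. Only NT4 2 lay outside the Control range. NT4 over Control was at −0.23 on the log2 scale (SE 0.28), and at 0.088 when NT4 2 was left out.

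Tfpi encodes tissue factor pathway inhibitor, the Kunitz-type inhibitor that shuts off tissue factor once its first product has formed (ENSMUSG00000027082, chr2:84432855-84476775, minus strand). Tfpi stood at 15.0 and 13.5 CPM in the Control libraries and at 24.6 and 24.8 CPM in the NT4 libraries. Both NT4 libraries were above both Control libraries, with group means of 14.3 ± 1.12 and 24.7 ± 0.12 CPM (SD, n = 2), a difference larger than the spread within either group. The exact binomial 95% intervals were 12.9 to 17.3 and 11.8 to 15.2 CPM in Control against 22.2 to 27.2 and 22.6 to 27.1 CPM in NT4. The log2 fold change was 0.81 (SE 0.16), and edgeR gave an unadjusted p of 0.00273 that became 0.9999 after adjustment. It was 0.72 between the libraries numbered 1 and 0.91 between those numbered 2, and leaving out 1 library at a time gave 0.75 to 0.88. The DESeq2 Wald test gave an adjusted p of 0.0104 for Tfpi, a call made for 0.338% of all genes by that test, whereas edgeR's exact test, which called 0.306% of all genes, and limma voom, which called 0.00%, called 0 of the 9.

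Theca and stroma markers moved the same way as Tfpi. Of these 10 genes 10 had a log2 fold change above 0 and 7 had both NT4 libraries above both Control libraries on TMM-scaled log2 CPM, against 13.4% of all genes. On CPM of library totals, a scale added after the data were seen, there were 6 of 10, against 11.9% of all genes. Their sum was 1481 and 1440 CPM for Control and 2099 and 1654 CPM for NT4, their median log2 fold change was 0.39, and 4 of the 10 (Acta2, Dcn, Col3a1 and Lum) had an unadjusted p under 0.05 in edgeR's test. The most abundant per length was Acta2, smooth muscle actin, with 238 and 212 CPM for Control and 312 and 289.5 CPM for NT4, followed by Cyp17a1, the theca enzyme of androgen synthesis, and the collagen gene Col3a1. The endothelial genes, another known site of Tfpi, summed to 35.5 and 27.0 CPM for Control and 37.9 and 29.5 CPM for NT4, with overlap. That sum is carried by Cdh5, whose groups overlapped. Of its 10 genes 4 had both NT4 libraries above both Control libraries on either scale, and on library totals 1 had both below. The 4 were Tek, Flt1, Emcn and Esam, none above 1.57 CPM in any library. Tek, at 0.16 to 0.95 CPM, was the 1 gene at an unadjusted p under 0.05 in edgeR's test. The part of either cell type in the Tfpi difference was not tested.

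Thbd encodes thrombomodulin, which turns thrombin from a clotting enzyme into the activator of protein C (ENSMUSG00000074743, chr2:148404466-148408188, minus strand). Thbd stood at 43.6 and 37.6 CPM in the Control libraries and at 53.7 and 39.1 CPM in the NT4 libraries. Only NT4 1 lay above the Control range. The log2 difference of 0.21 (SE 0.19) became −0.018 when NT4 1 was left out. Thrombomodulin is best known from endothelium, and in every library Thbd alone was above the sum of 10 endothelial genes, 27.0 to 37.9 CPM. Cdh5 led that sum at 16.4 to 25.5 CPM, whereas Pecam1 was at 0.65 to 1.92 CPM. The part of endothelial cells in the Thbd values was not tested.

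Procr encodes the endothelial protein C receptor, which presents protein C to thrombomodulin (ENSMUSG00000027611, chr2:155751117-155755471, plus strand). Procr stood at 3.78 and 6.86 CPM in the Control libraries and at 5.45 and 8.30 CPM in the NT4 libraries. The highest value was in NT4 and the lowest in Control, but the groups overlapped. The log2 fold change was 0.39 (SE 0.39), made up of 0.53 between the libraries numbered 1 and 0.30 between those numbered 2. It fell to 0.013 when Control 1 was left out and came to 0.91 when Control 2 was. Surface epithelium, where Procr is also made, was marked by few genes here. Krt19 and Upk1b had a count of 0 in every library. Above the floor in all libraries lay 4 of the 10 genes of that list, led by Krt8, Krt18 and Wt1. The part of surface epithelium in the Procr values was not tested.

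F2r encodes PAR1, the main receptor through which thrombin signals to cells (ENSMUSG00000048376, chr13:95601803-95618487, minus strand). F2r stood at 65.4 and 55.8 CPM in the Control libraries and at 72.6 and 57.9 CPM in the NT4 libraries. Each NT4 library was slightly above the Control library of its own number, by 0.16 and 0.08 on the log2 scale, but the groups overlapped. The log2 fold change was 0.13 (SE 0.16).

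**Figure D2:**
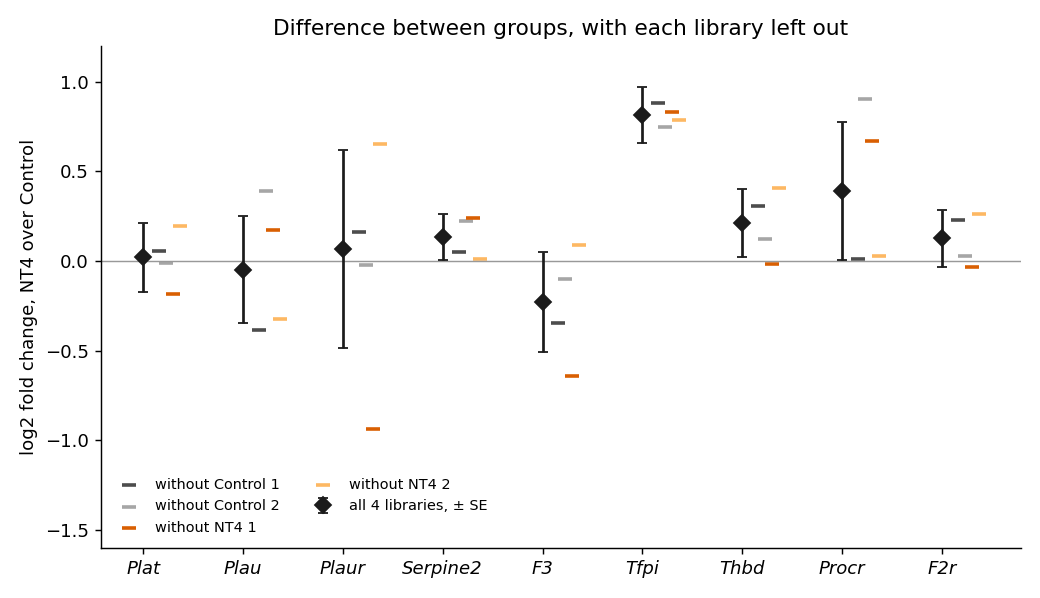
Log2 fold change of NT4 over Control for each gene, with diamonds for the edgeR fit on 4 libraries (bars, SE) and dashes for fits without each library in turn. Tfpi stays between 0.75 and 0.88 in all 4 of these fits, whereas Plat, Plau, Plaur, F3, Thbd and F2r cross 0 in at least 1.

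The libraries carry the numbers 1 and 2 in both groups, and these numbers went with more of the values than the groups did. In 7 of the 9 genes both libraries numbered 2 lay on the same side of both libraries numbered 1, compared with 49.1% of all genes tested. Plau, Procr and Serpine2 were higher in the libraries numbered 2. For Plau the difference was 0.77 in Control and 0.50 in NT4 on the log2 scale, and for Procr it was 0.87 and 0.64. Plat, Plaur, Thbd and F2r were lower in the libraries numbered 2, with Plaur by −0.20 in Control and −1.57 in NT4. F3 and Tfpi followed neither order by number. Library totals split by number too, at 49520092 counts for Control 1 and 61980073 for NT4 1 against 73743901 for Control 2 and 78704020 for NT4 2. The part of depth in the split by number was not tested. The labels do not say what a number stands for.

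**Figure D3:**
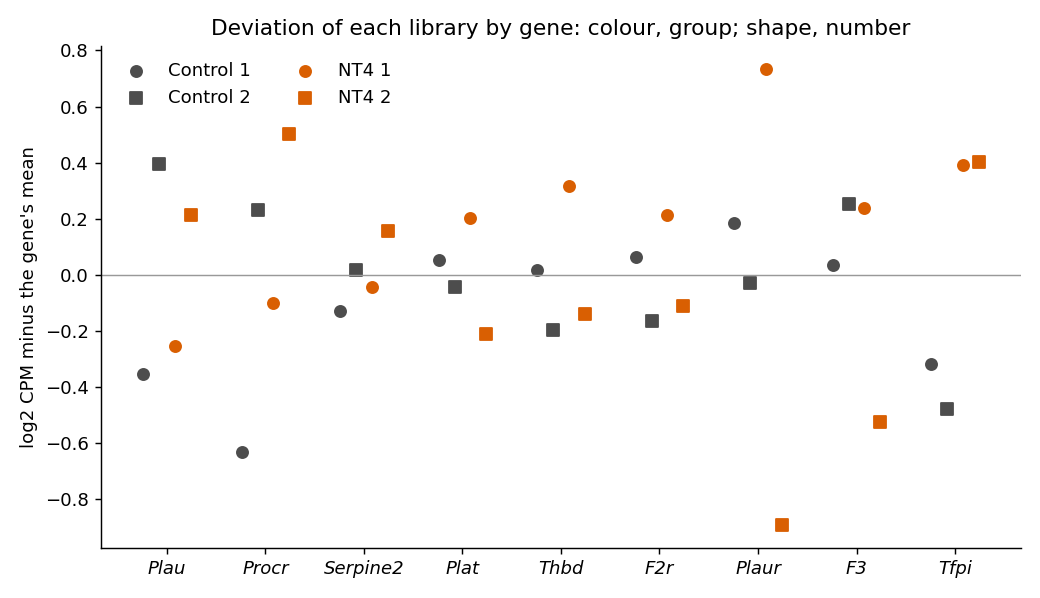
Log2 CPM of each library minus the mean of the gene over the 4 libraries, with colour for the group and shape for the number. Squares and circles separate for the first 7 genes, and colours separate only for Tfpi.

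A protease and its inhibitor act as a pair, so 5 ratios were taken within each library, per kilobase, where the scaling of libraries cancels. Plau was below Serpine2 in all 4 libraries. The step was largest in Control 1, at 2.43 times, and smallest in Control 2, at 1.60 times, with both NT4 libraries between them, and the difference between them was −0.15 on the log2 scale. Plat was below Serpine2 by 55.4 to 84.7 times, with a difference between groups of −0.12. These folds rest on the length used, since per kb of the longest transcript Serpine2 was 4.92 times Plau in the mean of the libraries, in place of 2.04, and stood at 409.2 CPM per kb against 3.94 for Plat. Plau exceeded its receptor Plaur by 47.0 to 198 times, both extremes being NT4 libraries, with a difference of 0.12.

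The ratio of F3 to Tfpi, initiator to inhibitor, was the ratio that differed most between the groups. Its log2 value was 0.94 and 1.31 for Control and 0.43 and −0.34 for NT4. Both NT4 libraries were below both Control libraries, and the difference of −1.08 exceeded the SD of 0.27 in Control and 0.54 in NT4 (n = 2). Since Tfpi alone differed by 0.81 and F3, with overlap, by −0.23, this ratio largely restates the Tfpi difference and is not a separate result. The ratio of Thbd to F3 was 1.15 and 0.72 in Control against 1.25 and 1.55 in NT4, again without overlap, with a difference of 0.47. The exact two-sided permutation test gave 0.333 for both, which is the smallest p that 2 libraries against 2 allow, and 1 for each of the other 3 ratios. With Benjamini-Hochberg adjustment over the 5 ratios the smaller p of this permutation test became 0.833.

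**Figure D4:**
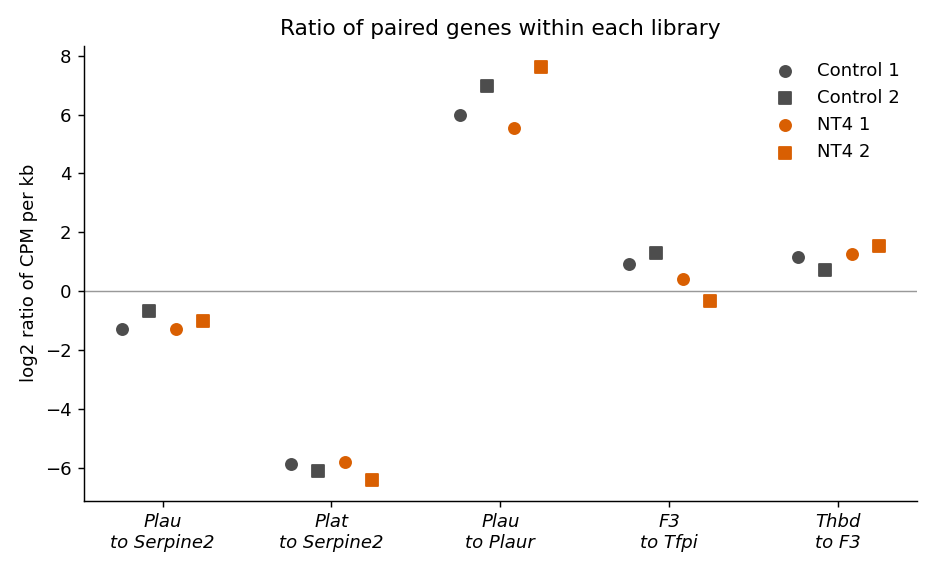
Log2 ratio of CPM per kb for 5 pairs of genes in each library (grey Control, orange NT4, circle number 1, square number 2). Plau and Plat lie below Serpine2 in all libraries, and the F3 to Tfpi ratio is at 0.94 and 1.31 in Control against 0.43 and −0.34 in NT4.

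The other genes of these systems were read from lists of 65 genes, of which 55 passed the filter. By edgeR's test 0 passed an adjusted p of 0.05 and 5 had an unadjusted p under 0.05, against 1.99% of all genes. Of these 2 were higher in NT4, A2m, the broad protease inhibitor alpha-2-macroglobulin (0.55, SE 0.22), and Lrp2, the endocytic receptor megalin (0.86, SE 0.30), and 3 were lower, Vtn, Fga and Plg. The study's criterion was met by 2, both lower in NT4, against 0.602% of all genes. These were Vtn, vitronectin, the plasma and matrix protein that binds the urokinase receptor, with 5.25 and 2.54 CPM for Control and 1.52 and 1.55 CPM for NT4, and Fga, the fibrinogen alpha chain, with 7.33 and 3.61 CPM for Control and 2.07 and 2.31 CPM for NT4. Their log2 fold changes were −1.32 (SE 0.42) and −1.29 (SE 0.40). On TMM-scaled log2 CPM the groups did not overlap in 20 of the 55, against 26.0% of all genes, and on CPM of library totals in 22, against 26.6%. Vtn and Fga were highest in Control 1, where the hepatocyte sum was also highest. That sum is carried by Alb and Apoa1, but of the 10 hepatocyte genes 0 had a log2 fold change above 0, their median was −0.79, and 2 of them had an unadjusted p under 0.05 in edgeR's test, Ttr (−1.19) and Serpina1a (−0.82). Their part in the Vtn and Fga values was not tested. The count of 2 did not hold in every fit with 1 library left out. No share of all genes is at hand for those fits, so this is not read as particular to these genes.

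Among the 21 tested genes of the plasminogen system, 11 had a log2 fold change above 0 and 10 below 0, with a median of 0.0011. On TMM-scaled log2 CPM the groups did not overlap in 11 of the 21, 6 higher and 5 lower in NT4, against 26.0% of all genes. Plg, plasminogen itself, was at 1.11 to 2.79 CPM, lower in both NT4 libraries (log2 fold change −0.97, SE 0.35), and its exons overlap those of Slc22a3 on the other strand. Thbs1, Eno1 and Anxa2 were the most abundant per length, and Anxa2, a plasminogen-binding annexin, was higher in both NT4 libraries (0.22, SE 0.12).

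Of the 17 coagulation factor genes 12 were tested, 8 of them below 0, with a median of −0.66 beside the −0.79 of the hepatocyte genes, whose part here was not tested. On the same scale the groups did not overlap in 6 of the 12, 1 higher and 5 lower in NT4, against 26.0% of all genes. F7, F9, F11, F13a1 and F13b did not pass the filter. Fgg, the fibrinogen gamma chain, had 5.19 and 2.39 CPM for Control and 1.42 and 2.01 CPM for NT4, while Gas6, a vitamin K-dependent ligand and not a clotting factor in the strict sense, was at 623 to 779 CPM with overlapping groups. The anticoagulant list split evenly, with 5 genes above 0 and 5 below 0, led by Anxa5 (0.18, SE 0.11), Sdc4 and Hs3st1. Of the other protease-activated receptors F2rl1, F2rl2 and F2rl3 did not pass the filter, so PAR1 was the only receptor of its family to do so. The G proteins that carry its signal, with Gna12, Gna11 and Gna13 the most abundant, were at −0.05, 0.05 and −0.07. In the vitamin K and secretion list Vkorc1, Mcfd2 and Lman1 led, and the groups did not overlap in 0 of its 6 genes, against 26.0% of all genes on that scale.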

How the data were processed

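Expected counts had been deposited by the authors as whole numbers for each gene, estimated from read coverage and not normalized. In their methods Cutadapt filtered the reads, HISAT2 mapped them to the Ensembl v99 mouse genome (mm10, GRCm38) and StringTie assembled transcripts. The step to whole counts and the use of strand are not given in the sources used here. Low counts pile up at multiples of 4 (45.4% to 46.2% of counts from 1 to 12), so 1 read pair was taken as 4 counts. The files of single libraries held the same counts as the table in 4 of 4 libraries.

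Symbols, positions and exon lengths came from GENCODE M21 (GRCm38), matched by identifier (55144 of 55385). Fits covered all genes in R 4.3.3 with edgeR 4.0.16: quasi-likelihood test, TMM, default filter, group alone, two-sided, Benjamini-Hochberg adjustment over 19259 genes. Alternatives were limma voom (3.58.1), the DESeq2 (1.42.0) Wald test and size factors, edgeR's exact test, upper-quartile factors, library totals, other filters, counts divided by 4, thinning to the smallest total, the library number as a block and leaving out each library. The procedure was tested on simulated counts. CPM used library totals, and log2 ratios a prior count of 2. P-values measure the spread between these samples.

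Named were all 9 genes, listed pathway genes past a threshold and the 3 most abundant per length in each list, and likewise the leading markers or those at 0. Members and lists were chosen with earlier results of these data known, and the motifs after the sequences were read. No gene of like pattern was named, since over 4 libraries many genes match closely.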

Additional observations from a re-analysis of the deposited data

How the results depend on the processing

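Over 15 alternatives for each of the 9 genes (135 values), 123 kept their direction and their side of the threshold, 11 turned the direction and 1 newly passed. The direction of Serpine2, Tfpi and Procr did not turn in any of the 15, but with a library left out Serpine2 ranged from 0.0089 to 0.24 and Procr from 0.013 to 0.91. Tfpi passed in the DESeq2 Wald test alone (log2 fold change 0.81, adjusted p 0.0104), which made the count of called genes 1 in place of 0. Its adjusted p in the other alternatives ran from 0.165 in edgeR's exact test upwards. With a fold of 1.5 in place of 2, the study's criterion was met by 1 of the 9 genes, against 1.57% of all genes, and by 4 of the other pathway genes. Plaur turned to −0.18 in limma voom. With a library left out, which takes the spread of a lone library from the other group, log2 fold changes ranged from −0.19 to 0.20 for Plat, −0.39 to 0.39 for Plau, −0.94 to 0.65 for Plaur, −0.64 to 0.088 for F3, −0.018 to 0.41 for Thbd and −0.031 to 0.26 for F2r. The count of other pathway genes meeting the criterion, 2, became 5 without the filter, 4 by DESeq2 and 4 by edgeR's exact test. It also moved with a library left out. The cause was not tested. With no share of all genes at hand for these settings, the changes are not read as particular to these genes. The level of Serpine2 over Plau, 2.04 times per kb of merged exons, was 4.92 times per kb of the longest transcript, since the merged exons of Serpine2 span 8287 bases against 3393, and Procr and Plat then changed places. The differences in the 5 ratios cannot change with length or the block, and with 2 libraries a group, leaving out 1 cannot move them by as much as that group's SD, so neither shows stability. With a library left out they ranged from −0.45 to 0.15 for Plau to Serpine2, −0.43 to 0.18 for Plat to Serpine2 and −0.92 to 1.15 for Plau to Plaur, and kept their direction at −1.46 to −0.69 for F3 to Tfpi and 0.25 to 0.68 for Thbd to F3.

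Same-numbered libraries deviated together across 19259 genes (Pearson's r 0.14, Spearman's rho 0.26), but the labels state no pairing and 2 numbers cannot establish it. With the number as a replicate block, Plaur was at −0.13, Tfpi at 0.82 with an edgeR adjusted p of 0.936, 4 other pathway genes met the criterion, and no gene was called. Depth limits Plaur most, at 24 to 58 read pairs.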
